A study of Mus musculus with 10 samples.

Results

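The proteasome genes described here were all genes on the array whose symbol begins with Psma, Psmb, Psmc, Psmd, Psme, Psmf or Psmg and that have a probe set assigned to that gene alone. The rule found 48 of 12393 genes, each represented by the probe set with the highest mean over 10 arrays. By role they are 7 subunits of the alpha ring, 7 constitutive subunits of the beta ring, 4 genes of the immunoproteasome and the PA28 activator, 9 subunits of the 19S base, 8 of the 19S lid, 7 assembly factors and 3 other activators or inhibitors. The other 3 were matched by symbol only: Psmc3ip and Psme3ip1 do not encode proteasome subunits, and Psma8 encodes an alpha subunit of the testis. Psma8 was dim on every array, with signals from 1.1 to 32.9, and was not tested, which left 47 members. Psme2 is not analysed here, because its probe set is assigned to several genes.

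The arrays measured RNA of 5 populations purified by FACS from the paw pads of mice, with 2 arrays each. The populations were basal cells and suprabasal cells of the sweat duct, myoepithelial cells and luminal cells of the sweat gland, and epidermis of the palmoplantar skin. All of the mice were wild-type females of CD1 background, and the labels name no treatment. The arrays within a population are labelled as biological replicates. The labels give neither the age of the mice, nor the sorting markers, nor how many animals stand behind an array. All p-values therefore measure the spread between these arrays. Values are MAS5 signal, a linear intensity, and differences are of log2(signal + 12), where 12 is added to damp the noise of dim probe sets. In these bulk measurements fewer cells of a type and less RNA per cell cannot be told apart.

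The 26S proteasome is the protease that degrades most ubiquitin-tagged proteins of the cytosol and nucleus. Its 20S core is a barrel of alpha and beta rings that holds the active sites inside. The 19S cap receives tagged proteins, removes their ubiquitin chains with its lid and unfolds and feeds them in with the ATPases of its base. In immune cells, and in other cells exposed to interferon-gamma, the catalytic beta subunits are exchanged for the immunoproteasome subunits, and the PA28 activator can take the place of the cap, which alters the peptides available to MHC class I. In skin the system takes part in the turnover of regulatory proteins as keratinocytes leave the basal layer.

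The signals of both arrays correlated least in the duct suprabasal population (r of log2 values over the 9310 genes tested 0.907, against 0.963 to 0.981 in the other 4). All 8 endothelial markers had more signal on the second duct suprabasal array than on the first, with sums of 14628 and 2779, and their sum was 65.7 to 453 on the 8 arrays of the other populations. So did all 7 fibroblast markers measured, with sums of 87379 and 16704, and of 1087 to 44326 on the other 8. The markers checked were those of 4 populations, with none listed for duct suprabasal cells. The basal markers Krt5, Krt14 and Trp63 summed to 63739 and 62755 on the duct basal arrays and also to 22379 to 37952 on the duct suprabasal, myoepithelial and epidermis arrays. The smooth muscle genes of myoepithelium summed to 67949 and 97781 on the myoepithelial arrays, the luminal keratins and Aqp5 to 60345 and 74163 on the luminal arrays, and Krt1, Krt10 and Lor to 70171 and 70574 on the epidermis arrays. The luminal markers were also bright on the duct suprabasal arrays (33891 and 15164) and on the myoepithelial arrays (17055 and 7787). The lowest signal of any probe set on any array was 0.1, so no marker could be at 0. Some markers were close to that floor, such as Cnn1 at 1.2 and 1.7 on the epidermis arrays. The median signal of all probe sets was 65.7 and 67.3 on the epidermis arrays and 92.7 to 120.1 on the other 8.

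Proteasome genes of the core, the 19S cap and its assembly were brightest in epidermis. The mean was highest in epidermis for 39 of 47 members, against 22.3% of all genes tested, and both epidermis arrays lay above all 8 others for 37 of 47, against 14.8% of all genes. These included 7 of 7 alpha, 6 of 7 constitutive beta, 8 of 9 base, 8 of 8 lid and 6 of 7 assembly genes, but 1 of 4 in the immunoproteasome group. The lowest mean fell in the myoepithelial population for 17 members, in the duct suprabasal for 16, in the luminal for 12, in the epidermis for 2 and in the duct basal for 0. A moderated F test over the 5 populations (limma, Benjamini-Hochberg adjustment over 9310 genes, threshold 0.05) called 36 of 47 members, beside 65.8% of all genes tested, so the share of members called was not far above the background. Without epidermis array 1 it called 23, and without epidermis array 2 also 23.

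**Figure D1:**
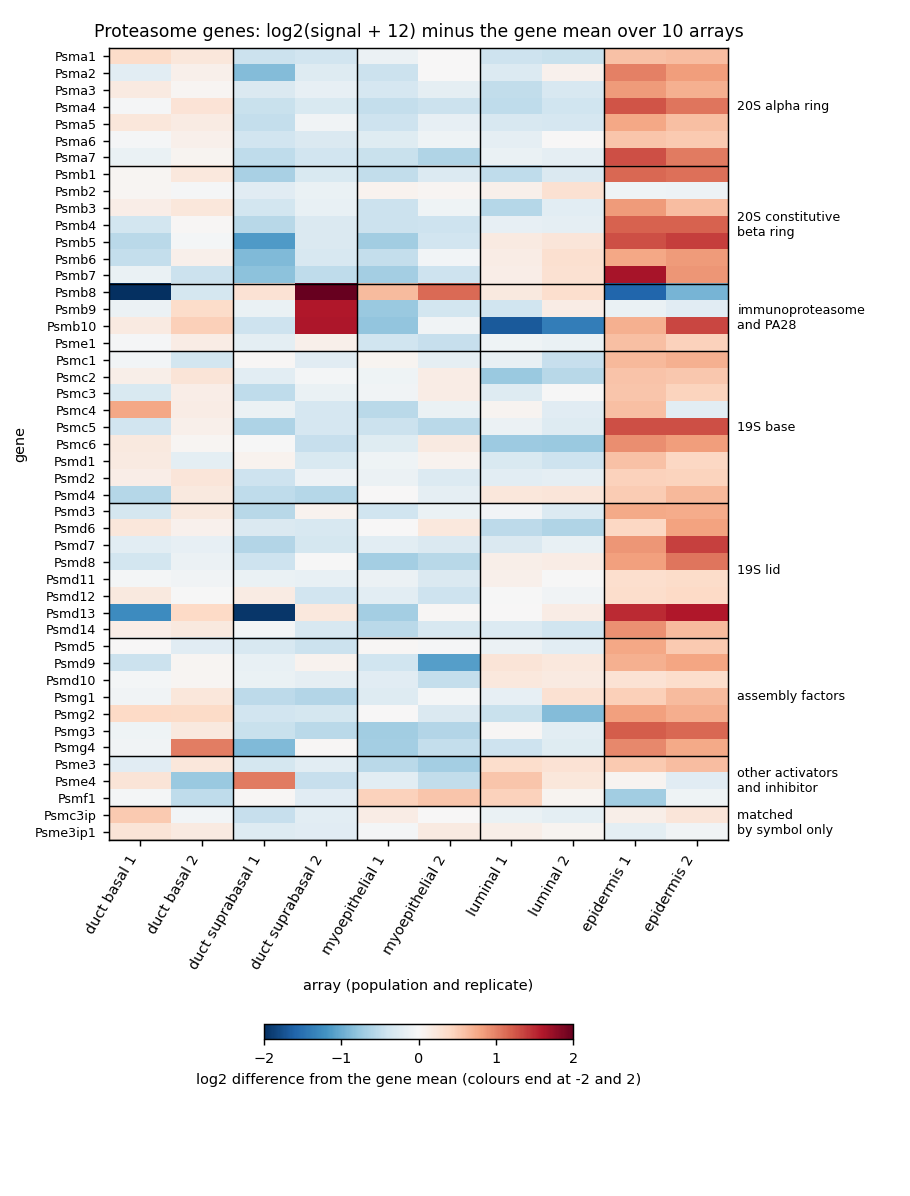
Log2(signal + 12) of each of the 47 tested genes (rows, grouped by role) on each of the 10 arrays (columns), as the difference from that gene's mean over 10 arrays; colours end at -2 and 2. The epidermis columns are red for most genes of the core, base, lid and assembly groups, while Psmb8, Psmb9 and Psmb10 are reddest on duct suprabasal array 2.

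Duct basal cells against epidermis compares the basal layer of the duct with palmoplantar epidermis, whose arrays also carried the basal markers. Here 22 of 47 members were lower in duct basal cells and 0 were higher, beside 11.0% of all genes lower and 23.0% higher (34.0% called in all). Of these 22, 10 differed at least 2-fold, and 31 of 47 members had an unadjusted p under the threshold in limma. The shares of all genes at these cut-offs were not worked out, so neither count has a background. The median difference was -0.57 over the 47 members and 0.24 over all 9310 genes. Most members are bright: 37 of them lie in the brightest 25% of the genes tested, where the median difference was 0.01 and 19.1% of genes were lower. By role, 5 of 7 alpha, 5 of 7 beta, 4 of 9 base, 5 of 8 lid and 3 of 7 assembly genes were lower, and 0 of 4 of the immunoproteasome group. The count of 22 fell to 13 without duct basal array 1, to 10 without epidermis array 1 and to 11 without epidermis array 2. Whichever array was left out, 10 of the 22 stayed called: Psma4, Psma7, Psmb1, Psmb4, Psmb5, Psmb7, Psmc5, Psmd7, Psmd8 and Psmg3. Of the 22, 10 have other probe sets, 16 in all, and 7 of these, in Psmb1, Psmd7, Psma6 and Psmc1, had the opposite sign, with mean signals of 7.97 to 152. Quantile normalization moved the median of all genes from 0.24 to 0.01, and then 18 members were lower, with a member median of -0.46, beside 12.3% of all genes lower and 16.1% higher.

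**Figure D2:**
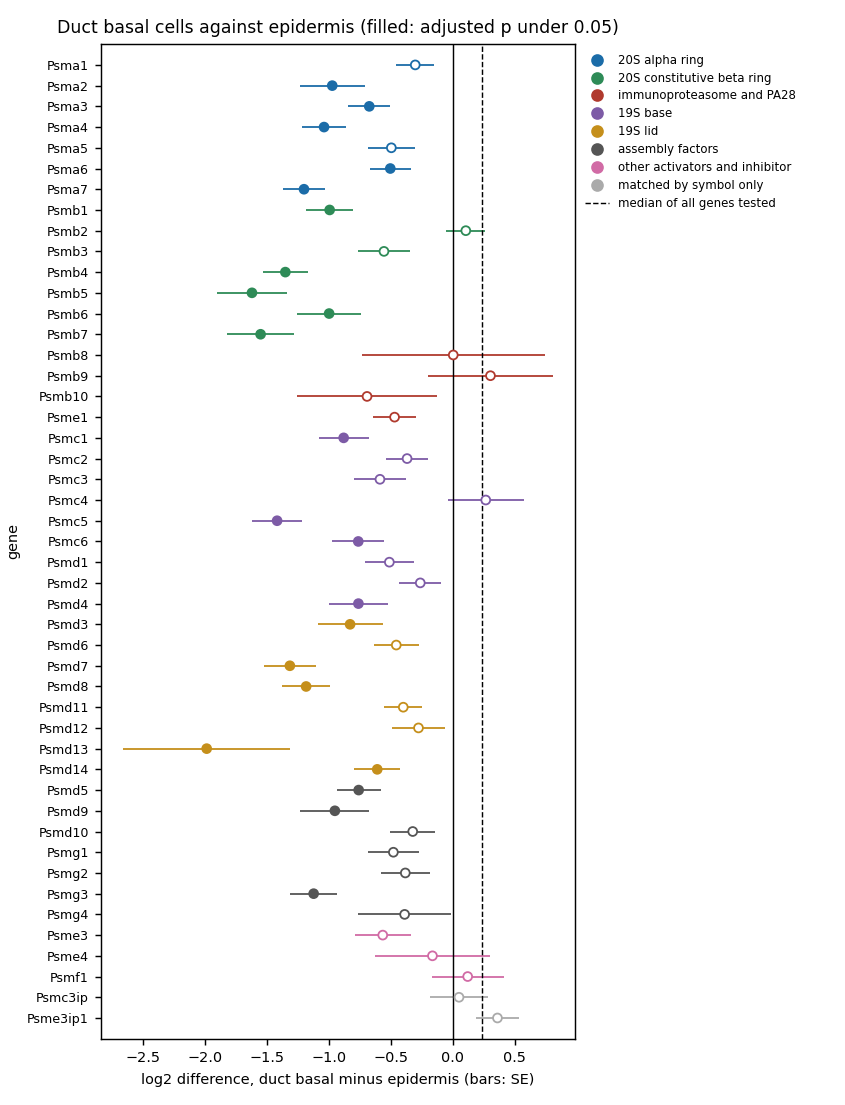
Log2 difference of duct basal cells minus epidermis for each tested gene, with its standard error as a bar; filled points have an adjusted p under 0.05 and the dashed line is the median of all genes tested (0.24). Filled points lie left of 0 in every core, base, lid and assembly group, from -0.50 for Psma6 to -1.99 for Psmd13, and no point of the immunoproteasome group is filled.

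The other 3 sweat gland populations were also set against the same 2 epidermis arrays, a choice made after the values were seen. Because these arrays are shared, the counts of the 4 comparisons are not independent of each other. Duct suprabasal cells were lower for 36 members and higher for 1, beside 16.7% of all genes lower and 29.4% higher (46.0% called), with a member median of -0.95. Myoepithelial cells were lower for 36 and higher for 2, beside 19.9% and 31.7% (51.6% called), with a median of -0.92. Luminal cells were lower for 30 and higher for 0, beside 19.2% and 26.1% (45.3% called), with a median of -0.91. The medians of all genes were 0.25, 0.28 and 0.16. With quantile normalization the lower counts were 36, 33 and 29, beside 22.6%, 25.1% and 21.9% of all genes, and the medians of all genes were -0.10, -0.03 and -0.03. Among the other probe sets of called members, 10 of 31, 9 of 34 and 6 of 20 had the opposite sign, in the same order. Their mean signals reached 1443, 1443 and 126. Without epidermis array 1 the called members were 24 for duct suprabasal cells (37 with it) and 25 for myoepithelial cells (38 with it). The ratio of 3' to 5' probe sets of beta-actin, a gauge of RNA integrity and labelling, was 3.30 and 2.51 on the epidermis arrays, 2.44 and 3.60 on the luminal arrays and 3.49 to 7.79 on the other 6. Its part in the differences was not tested.

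**Figure D3:**
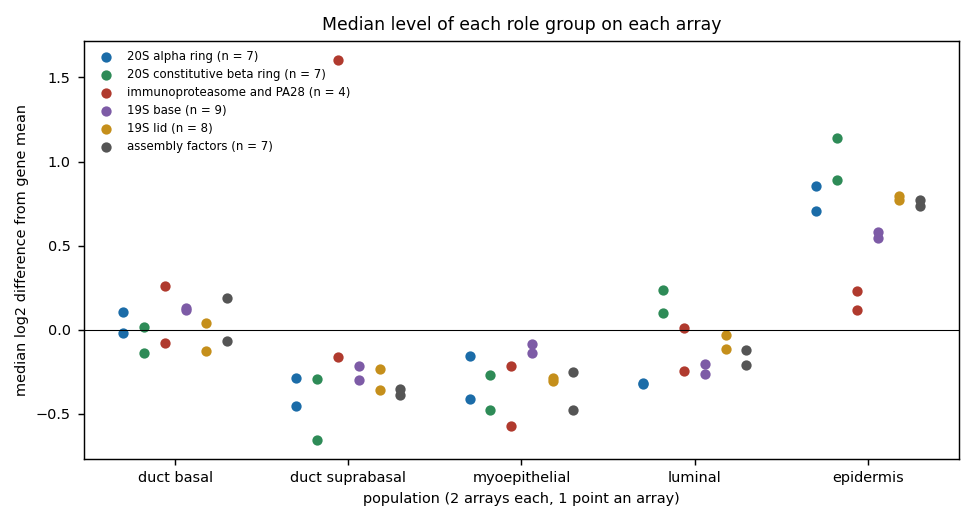
Median over each role group (colours, with the number of tested genes in the legend) of the log2 difference from the gene mean, with 1 point for each of the 2 arrays of a population. The medians of 5 groups lie between 0.54 and 1.14 on the epidermis arrays, and the immunoproteasome and PA28 group stands at 1.61 on duct suprabasal array 2.

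The alpha ring forms the gated entrance of the core. All 7 of its genes passed the F test and all 7 had both epidermis arrays above the rest. Psma4 had signals of 3388 and 4172 on the duct basal arrays, 2520 and 2805 on the duct suprabasal arrays, 2466 and 2564 on the myoepithelial arrays, 2415 and 2608 on the luminal arrays and 8263 and 7248 on the epidermis arrays. Both epidermis arrays were well above the next highest array, and the duct basal arrays were next. It was 2.06-fold lower in duct basal cells than in epidermis (log2 difference -1.04, SE 0.17, adjusted p = 0.00213), and the difference was -1.54 for duct suprabasal, -1.62 for myoepithelial and -1.62 for luminal cells. Psma7 had 3059 and 3493 on the duct basal arrays, 2362 and 2555 on the duct suprabasal arrays, 2453 and 2192 on the myoepithelial arrays, 3038 and 2965 on the luminal arrays and 8209 and 6911 on the epidermis arrays. Again no array of another population reached the epidermis arrays, and duct basal cells were 2.30-fold lower (log2 difference -1.20, SE 0.17, adjusted p = 0.000883). Psma2 had 5911 and 7408 on the duct basal arrays, 3743 and 5753 on the duct suprabasal arrays, 5082 and 6942 on the myoepithelial arrays, 5686 and 7310 on the luminal arrays and 13799 and 12249.8 on the epidermis arrays. Its arrays within a population differed more, yet duct basal cells were lower than epidermis (log2 difference -0.97, SE 0.26, adjusted p = 0.0193), as were the 2 genes next in order, Psma3 at -0.67 (SE 0.17) and Psma6 at -0.50 (SE 0.17). Psma1 at -0.30 (adjusted p = 0.162) and Psma5 at -0.50 (adjusted p = 0.0731) did not pass for duct basal cells, though both did for the other 3 populations.

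Psma1 was the alpha gene that separated the layers of the duct. Its signals were 5592 and 5092 on the duct basal arrays and 3226 and 3320.5 on the duct suprabasal arrays, which did not overlap, and it was 1.63-fold higher in duct basal cells (log2 difference 0.70, SE 0.15, adjusted p = 0.0176). Psma1 has 2 other probe sets, with mean signals of 15.9 and 29.5, and both had the opposite sign, so that the mean over its probe sets gave -0.065. Psma4 fell from duct basal to myoepithelial cells (log2 difference -0.58, SE 0.17, adjusted p = 0.04).

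The beta ring holds the active sites, with caspase-like activity in Psmb6, trypsin-like in Psmb7 and chymotrypsin-like in Psmb5, and 4 structural subunits beside them. Psmb5 had 1944 and 2767 on the duct basal arrays, 1284 and 2321 on the duct suprabasal arrays, 1755 and 2179 on the myoepithelial arrays, 3224 and 3346 on the luminal arrays and 6924 and 7407 on the epidermis arrays. Epidermis was highest and the luminal arrays were next, above every duct and myoepithelial array. Psmb5 was 3.08-fold lower in duct basal cells than in epidermis (log2 difference -1.62, SE 0.28, adjusted p = 0.00261) and 4.13-fold lower in duct suprabasal cells (log2 difference -2.04, SE 0.28, adjusted p = 0.000515). Psmb6 had 2926 and 4367 on the duct basal arrays, 2204 and 3238 on the duct suprabasal arrays, 2906 and 3907 on the myoepithelial arrays, 4478 and 5049 on the luminal arrays and 6948 and 7362 on the epidermis arrays. The order was the same, with the luminal arrays second. Duct basal cells were lower (log2 difference -0.998, SE 0.26, adjusted p = 0.017), and luminal cells, at -0.59 (adjusted p = 0.0954), did not pass. Psmb7 had 826 and 671 on the duct basal arrays, 509 and 638 on the duct suprabasal arrays, 564 and 681 on the myoepithelial arrays, 993 and 1130.1 on the luminal arrays and 2872 and 1692 on the epidermis arrays. The epidermis arrays differed from each other but both exceeded all others, and the luminal arrays were again second. Duct basal cells were 2.93-fold lower than epidermis (log2 difference -1.55, SE 0.27, adjusted p = 0.00246). The step between myoepithelial and luminal cells did not pass the test for any of the 3, at -0.74 (adjusted p = 0.0761) for Psmb5, -0.50 (adjusted p = 0.184) for Psmb6 and -0.76 (adjusted p = 0.0585) for Psmb7.

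Among the structural beta subunits, Psmb4 had 4971 and 6479 on the duct basal arrays, 4356 and 5222 on the duct suprabasal arrays, 4767 and 4804 on the myoepithelial arrays, 5714 and 5642 on the luminal arrays and 14550.2 and 14457 on the epidermis arrays. The epidermis arrays were more than 2-fold above every other array and nearly equal to each other. Duct basal cells were 2.55-fold lower (log2 difference -1.35, SE 0.18, adjusted p = 0.000708). Psmb1, at -0.99 (SE 0.19), was lower too. Psmb3, at -0.56 (adjusted p = 0.0665), did not pass for duct basal cells, though it did for the other 3 populations against epidermis. Its other probe set, with a mean signal of 4039, gave -1.35 for duct basal cells. Psmb2 did not follow the ring. Its signals were 2044 and 1953 on the duct basal arrays, 1689 and 1814 on the duct suprabasal arrays, 2078 and 2039 on the myoepithelial arrays, 2119.8 and 2452 on the luminal arrays and 1865 and 1847 on the epidermis arrays. All 10 arrays lay close together, with the luminal arrays highest and the duct suprabasal arrays lowest, and the F test gave an adjusted p of 0.274. The difference of duct basal cells from epidermis was 0.11 (adjusted p = 0.651).

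**Figure D4:**
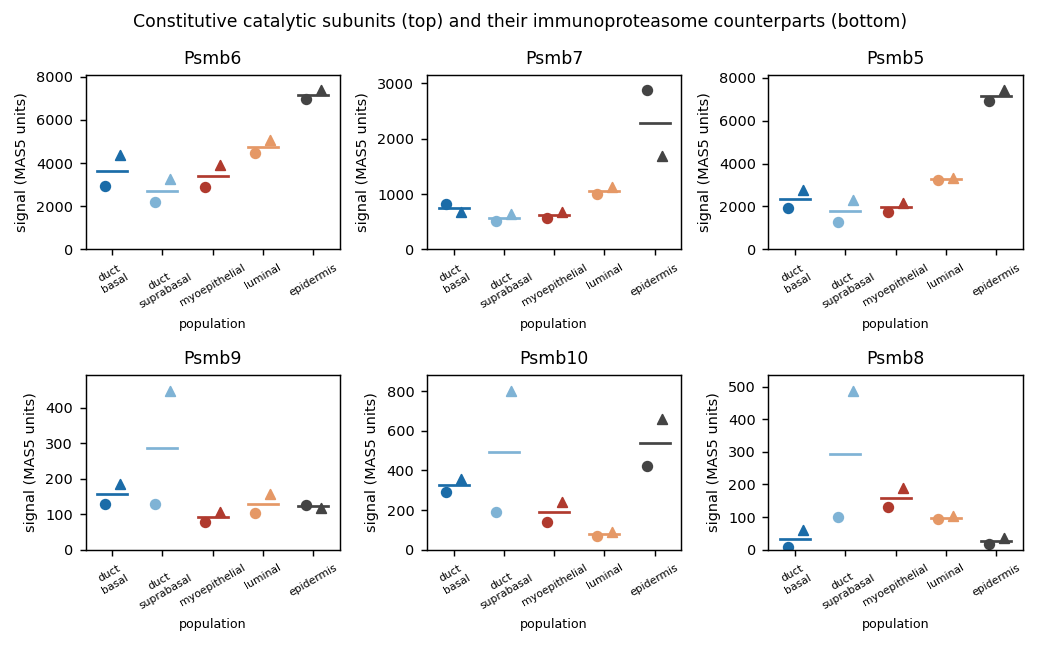
Signal (MAS5 units, linear axes from 0) of the 3 constitutive catalytic subunits (top) and the 3 immunoproteasome subunits that replace them (bottom, in the same column), with circles for array 1, triangles for array 2 and a line at the mean of each population. By mean, the constitutive subunits are highest in epidermis and second in luminal cells, and Psmb10 is also highest in epidermis. By single array, Psmb8, Psmb9 and Psmb10 are each highest on duct suprabasal array 2.

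The sequences just before the start sites of Psmb5 and Psmb6 are shown because both encode constitutive catalytic subunits that were highest in epidermis and share a motif there. They are the 250 bases before the annotated start, 5' to 3' on the gene's strand, from RefSeq on GRCm38.p6: chr14:54617996-54618245 on the minus strand for Psmb5 and chr11:70525107-70525356 on the plus strand for Psmb6. Capitals mark the core of the antioxidant response element, TGACNNNGC.
Psmb5: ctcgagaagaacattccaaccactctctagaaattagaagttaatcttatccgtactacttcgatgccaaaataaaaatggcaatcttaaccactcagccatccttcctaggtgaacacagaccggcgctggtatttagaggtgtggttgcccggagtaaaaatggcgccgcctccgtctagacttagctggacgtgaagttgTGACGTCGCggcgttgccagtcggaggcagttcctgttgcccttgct
Psmb6: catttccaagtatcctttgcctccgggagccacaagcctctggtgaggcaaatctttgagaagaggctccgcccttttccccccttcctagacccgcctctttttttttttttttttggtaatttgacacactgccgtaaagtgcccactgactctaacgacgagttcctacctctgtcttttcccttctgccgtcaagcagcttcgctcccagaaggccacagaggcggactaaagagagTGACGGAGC

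The antioxidant response element is the site of NRF1 and NRF2, factors known to raise proteasome genes when the protease is impaired or the cell is under oxidative stress. Promoters were found for 40 of the 48 members and for 27025 genes in all, and both strands were searched. TGACNNNGC was in 5 of 40 member promoters (12.5%: Psmb5, Psmb6, Psmc6, Psmd9 and Psmd12) and in 11.5% of all promoters. The interferon-stimulated response element was in 3 of 40 (7.5%: Psmb3, Psmd4 and Psmd9) against 3.46%. The NF-kB site was in 4 of 40 (10%) against 5.31%, the E-box CACGTG in 5 of 40 (12.5%) against 6.86% and the CCAAT box in 15 of 40 (37.5%) against 37.5%. A match of these letters is a description of the window and not a bound site. Psmb9 and the peptide transporter gene Tap1 start beside each other on opposite strands of chromosome 17, and their windows of 300 bases, from 250 before to 50 after the start, share 275 bases.

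The 19S base unfolds substrates with the ATPases Psmc1 to Psmc6 on the scaffold of Psmd1 and Psmd2, and Psmd4 is a receptor for ubiquitin chains. Psmc5 had 1080.2 and 1519 on the duct basal arrays, 913 and 1111 on the duct suprabasal arrays, 1047 and 965 on the myoepithelial arrays, 1292 and 1172 on the luminal arrays and 3445 and 3444 on the epidermis arrays. The epidermis arrays were almost equal and more than 2-fold above the highest other array. It was 2.67-fold lower in duct basal cells (log2 difference -1.42, SE 0.20, adjusted p = 0.000943) and at -1.76, -1.76 and -1.48 in duct suprabasal, myoepithelial and luminal cells. The other base genes lower in duct basal cells were Psmc1 at -0.88 (SE 0.20), Psmc6 at -0.76 (SE 0.21) and Psmd4 at -0.76 (SE 0.24). Psmc4 differed by probe set. The signals of its brighter one were 6339 and 4098 on the duct basal arrays, 3404 and 2944 on the duct suprabasal arrays, 2531 and 3361 on the myoepithelial arrays, 3833 and 3147 on the luminal arrays and 5606 and 3197 on the epidermis arrays, so that duct basal and epidermis arrays overlapped, and it did not pass the F test (adjusted p = 0.175). Its difference from epidermis was 0.27 in duct basal cells, whereas its other probe set, with a mean signal of 1559.98, gave -0.52. Psmc3 did not pass either (adjusted p = 0.0522).

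On the probe sets used, 2 base ATPases had more signal in myoepithelial than in luminal cells. Psmc6 had 2005 and 2696 on the myoepithelial arrays and 1429 and 1423 on the luminal arrays, with no overlap and both luminal arrays below every other array of the study (log2 difference 0.70, SE 0.21, adjusted p = 0.0324). Psmc2 had 5324 and 6243 on the myoepithelial arrays and 3384 and 3844 on the luminal arrays, again without overlap (log2 difference 0.67, SE 0.17, adjusted p = 0.0161). Other probe sets gave the same sign but smaller differences. They were 0.14 and 0.05 for Psmc6 (mean signals 633.5 and 102) and 0.24 for Psmc2 (mean signal 2153).

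The 19S lid removes ubiquitin chains through Psmd14, its deubiquitinase, while the other subunits hold its scaffold. On the probe sets used, all 8 lid genes had both epidermis arrays above the rest. Another probe set of Psmd11, with a mean signal of 1443 against 2191, had the opposite sign. It gave 0.41, 0.34, 0.60 and 0.27 for duct basal, duct suprabasal, myoepithelial and luminal cells minus epidermis. The remaining Psmd11 probe sets were below 0 for duct basal, duct suprabasal and myoepithelial cells and mixed for luminal cells. Psmd13 had the largest difference and the widest spread, with 394 and 1268 on the duct basal arrays, 240.5 and 1121 on the duct suprabasal arrays, 596 and 983 on the myoepithelial arrays, 974 and 1066 on the luminal arrays and 2748 and 2949.5 on the epidermis arrays. Array 1 was far below array 2 in both duct populations, and the difference of duct basal cells from epidermis (log2 difference -1.99, SE 0.68, adjusted p = 0.0481) has the largest standard error of the lid genes. Psmd7 had 722 and 748 on the duct basal arrays, 556 and 653 on the duct suprabasal arrays, 727 and 687 on the myoepithelial arrays, 685 and 752 on the luminal arrays and 1551 and 2194 on the epidermis arrays. The 8 arrays outside epidermis lay in a narrow band below it, and duct basal cells were 2.49-fold lower (log2 difference -1.32, SE 0.21, adjusted p = 0.00155). Its 2 other probe sets, with mean signals of 15.5 and 47.7, had the opposite sign, and the mean over its probe sets gave 0.011. Psmd8 followed at -1.18 (SE 0.20), Psmd3 at -0.83 (SE 0.26) and Psmd14 at -0.61 (SE 0.18). Psmd6, Psmd11 and Psmd12, at -0.46, -0.40 and -0.28, did not pass for duct basal cells.

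Within the sweat gland and duct the lid genes moved in both directions. Psmd8 was lower in myoepithelial cells, with 1460.2 and 1587 on the myoepithelial arrays and 2531 and 2601 on the luminal arrays (log2 difference -0.75, SE 0.20, adjusted p = 0.0179). Psmd6 was higher there, with 3760.2 and 4341 on the myoepithelial arrays and 2592 and 2466 on the luminal arrays (log2 difference 0.67, SE 0.18, adjusted p = 0.0215). Psmd14 was lower in myoepithelial than in duct basal cells, with 3154 and 3305 on the duct basal arrays and 1985 and 2302 on the myoepithelial arrays (log2 difference -0.59, SE 0.18, adjusted p = 0.0451). None of these pairs overlapped. Here and in the other role groups the genes were named because they were called, so a lack of overlap adds no support to the calls.

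The assembly factors do not belong to the finished particle: Psmd5, Psmd9 and Psmd10 are chaperones of the base, and Psmg1 to Psmg4 help to build the alpha ring. All 7 passed the F test. Psmg3 had 559 and 679.9 on the duct basal arrays, 434 and 406 on the duct suprabasal arrays, 363 and 389.9 on the myoepithelial arrays, 605 and 510 on the luminal arrays and 1387 and 1328 on the epidermis arrays. Epidermis was far above the other arrays, and the duct suprabasal and myoepithelial arrays were lowest. Psmg3 was 2.18-fold lower in duct basal cells than in epidermis (log2 difference -1.12, SE 0.19, adjusted p = 0.00229) and lower again in myoepithelial than in duct basal cells (log2 difference -0.70, SE 0.19, adjusted p = 0.028). Psmd9, at -0.95 (SE 0.28), and Psmd5, at -0.76 (SE 0.18), were the other assembly genes lower in duct basal cells. Psmd9 had 234 and 139.9 on the myoepithelial arrays and 377 and 366 on the luminal arrays and was 1.98-fold lower in myoepithelial cells (log2 difference -0.99, SE 0.28, adjusted p = 0.0249). Psmd10 had 453 and 379 on the myoepithelial arrays and 622 and 606 on the luminal arrays and was lower there as well (log2 difference -0.55, SE 0.18, adjusted p = 0.0458). Psmg2 separated the duct layers, with 1354 and 1350.4 on the duct basal arrays and 781 and 802 on the duct suprabasal arrays (log2 difference 0.76, SE 0.20, adjusted p = 0.0323). In each of these 3 genes the arrays of the pair did not overlap, which adds no support because they were named as called genes.

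Among the activators and inhibitors, Psme3 encodes the nuclear activator PA28 gamma, Psme4 the activator PA200 and Psmf1 the inhibitor PI31. Psme3 had 257 and 356 on the duct basal arrays, 233 and 259 on the duct suprabasal arrays, 204 and 183 on the myoepithelial arrays, 388 and 371 on the luminal arrays and 440.3 and 468 on the epidermis arrays. The myoepithelial arrays were lowest and the luminal arrays second to epidermis (log2 difference -0.93, SE 0.23, adjusted p = 0.0132 for myoepithelial minus luminal). Psmf1 had 248 and 175 on the duct basal arrays, 259 and 214 on the duct suprabasal arrays, 354 and 376 on the myoepithelial arrays, 352 and 263 on the luminal arrays and 152 and 238 on the epidermis arrays. The myoepithelial arrays lay above both epidermis arrays (log2 difference 0.90, SE 0.29, adjusted p = 0.0285), while the duct populations overlapped with epidermis. Its probe sets disagree: another, with a mean signal of 211 against 263, gave -0.88 for myoepithelial minus epidermis. The remaining ones, with mean signals of 123.5 and 54.4, gave 0.50 and 0.53. Psme4 spread widely within a population, with 2943 and 1029 on the duct suprabasal arrays, and did not pass the F test. Neither gene matched only by symbol, Psmc3ip or Psme3ip1, passed the F test.

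Comparisons among the 4 sweat gland populations gave far fewer calls. Myoepithelial against luminal cells had 3 of 47 members higher and 4 lower, beside 16.5% and 14.6% of all genes (31.1% called), and a member median of -0.10 beside 0.08 for all genes. Duct basal against duct suprabasal cells had 2 higher and 1 lower, beside 7.98% and 8.39% (16.4% called), and a median of 0.34 beside -0.02. Myoepithelial against duct basal cells, the basal layers of gland and duct, had 0 higher and 3 lower, beside 12% and 12.3% (24.3% called), and a median of -0.25 beside 0.02. Luminal against duct suprabasal cells, the inner layers, had 0 higher and 1 lower, beside 4.95% and 10.2% (15.2% called), and a median of 0.18 beside -0.06. In each of these the share of members called was below that of all genes. Counts at an unadjusted p under the threshold were 12, 14, 14 and 10 in that order. The shares of all genes at that p were not worked out, so these counts have no background.

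These small counts turn on single arrays, and 0 of these calls held with every 1 of the 10 arrays left out in turn. For myoepithelial against luminal cells, 7 members were called with all arrays, 0 without myoepithelial array 2 or luminal array 1, 1 without luminal array 2 and 11 without either duct suprabasal array. For the duct layers, 3 became 8 without duct suprabasal array 2, 3 without array 1 and 1 without either duct basal or either epidermis array. For myoepithelial against duct basal cells, 3 became 0 without either myoepithelial or either epidermis array, 1 without duct basal array 2 or either luminal array and 6 without either duct suprabasal array. For the inner layers, 1 became 0 without either luminal array, 3 without duct suprabasal array 1 and 2 without array 2.

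Psmb8, Psmb9 and Psmb10, the catalytic subunits of the immunoproteasome, did not have both epidermis arrays above the other 8. Psmb8 replaces Psmb5 in the immunoproteasome, and its signals were 8.5 and 59.7 on the duct basal arrays, 100 and 487 on the duct suprabasal arrays, 129.9 and 188 on the myoepithelial arrays, 93 and 104 on the luminal arrays and 18.5 and 35.9 on the epidermis arrays. Duct suprabasal array 2 stood far above the rest, the myoepithelial and luminal arrays were intermediate, and the epidermis and duct basal arrays were lowest. Its duct basal and epidermis signals were below the median of all probe sets on those arrays, so the size of its differences depends on the value added before taking logs. Psmb8 was lower in duct basal than in duct suprabasal cells (log2 difference -2.62, SE 0.74, adjusted p = 0.0416). It was higher than epidermis in duct suprabasal cells (log2 difference 2.63, SE 0.74, adjusted p = 0.0171) and in myoepithelial cells (log2 difference 2.14, SE 0.74, adjusted p = 0.0357). With 1 and 47 added in place of 12 the first difference was -3.21 (adjusted p = 0.0527) and -1.86, the second 3.05 and 1.93, and the third 2.55 and 1.47. Without duct suprabasal array 2 its difference between the duct layers was -1.55 (adjusted p = 0.134), and that from epidermis was 1.55 (adjusted p = 0.0904). Without duct basal array 1 the duct layers differed by -1.72 (adjusted p = 0.192), and the adjusted p was 0.0567 to 0.0677 without any 1 array of the other 3 populations. Without epidermis array 1 the differences from epidermis were 2.30 (adjusted p = 0.102) for duct suprabasal and 1.82 (adjusted p = 0.166) for myoepithelial cells. The myoepithelial call was also lost without either myoepithelial array, either luminal array or epidermis array 2 (adjusted p = 0.0525 to 0.144). With quantile normalization its adjusted p was 0.067 between the duct layers, 0.056 for duct suprabasal cells against epidermis and 0.108 for myoepithelial cells against epidermis.

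Psmb10, which replaces Psmb7, had 289.8 and 358 on the duct basal arrays, 188 and 802 on the duct suprabasal arrays, 142 and 242 on the myoepithelial arrays, 70.9 and 89.3 on the luminal arrays and 424 and 657 on the epidermis arrays. The luminal arrays were below all others, and below the median of all probe sets, and did not overlap with any population. The mean of Psmb10 was highest in epidermis, at 540, beside 495 in duct suprabasal cells. Luminal cells were lower than epidermis (log2 difference -2.56, SE 0.57, adjusted p = 0.0051) and than duct suprabasal cells (log2 difference -2.14, SE 0.57, adjusted p = 0.0352). Without duct suprabasal array 2 the second difference was -1.13 (adjusted p = 0.1), and its adjusted p was 0.0545 to 0.164 without any 1 duct basal, luminal or epidermis array. The difference from epidermis passed without any 1 array (adjusted p = 0.000146 to 0.048). Psmb9, which replaces Psmb6, had 128 and 185 on the duct basal arrays, 128 and 448 on the duct suprabasal arrays, 78.6 and 106 on the myoepithelial arrays, 103 and 157 on the luminal arrays and 126 and 119 on the epidermis arrays. Apart from duct suprabasal array 2 the populations overlapped, and it did not pass the F test (adjusted p = 0.251). Psme1, a subunit of PA28, had 1834 and 2073 on the duct basal arrays, 1630 and 2002 on the duct suprabasal arrays, 1417 and 1358 on the myoepithelial arrays, 1756 and 1706 on the luminal arrays and 2849 and 2568 on the epidermis arrays. Both of its epidermis arrays were above the rest, and it was lower than epidermis in duct suprabasal (-0.58, SE 0.17), myoepithelial (-0.96, SE 0.17) and luminal cells (-0.64, SE 0.17).

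On duct suprabasal array 2, where Psmb8, Psmb9 and Psmb10 were each brightest, the endothelial and fibroblast sums were also the highest of the 10 arrays, and 10 of 12 immune markers were brighter than on array 1 (summed signal 1845 against 801). The immune sum was highest on the myoepithelial arrays, at 6504 and 8744, and 389 to 1845 on the other 8. Psmb8 was brighter on the myoepithelial arrays (129.9 and 188.3) than on every duct basal, luminal and epidermis array. Psmb10 (142.1 and 241.8) was dimmer there than on every duct basal and epidermis array and brighter than on both luminal arrays (70.9 and 89.3). The mean of Psmb9 was lowest in myoepithelial cells. The part of endothelial, fibroblast or immune cells in the signals of the immunoproteasome genes was not tested.

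Genes that work with the proteasome were read from a list of 21 symbols, which includes older names, and 16 of them were tested. Pomp, the maturation factor of the core, had 4681 and 6229.7 on the duct basal arrays, 3934 and 4817 on the duct suprabasal arrays, 3515 and 4453 on the myoepithelial arrays, 6039.5 and 6936 on the luminal arrays and 10104 and 9238 on the epidermis arrays. It was highest in epidermis and was lower in duct basal cells (log2 difference -0.84, SE 0.21, adjusted p = 0.0148). In that comparison 5 of 16 were lower and 2 higher, beside 11.0% and 23.0% of all genes. The lower ones were Pomp, the ubiquitin shuttles Rad23b at -1.15 (SE 0.33) and Ubqln1 at -1.13 (SE 0.23), Ufd1 of the VCP segregase at -1.15 (SE 0.18) and the deubiquitinase Uchl5 at -1.08 (SE 0.30). The shuttle Ubqln2, at 1.498 (SE 0.23), and Zfand5, an activator of the proteasome, at 1.47 (SE 0.27), were higher. The median of the 16 was -0.24. In duct suprabasal, myoepithelial and luminal cells the counts against epidermis were 6, 7 and 5 lower of 16, beside 16.7%, 19.9% and 19.2% of all genes, and 4, 3 and 4 higher, beside 29.4%, 31.7% and 26.1%. Nfe2l1, which encodes NRF1, was higher than epidermis in luminal cells (log2 difference 0.96, SE 0.21, adjusted p = 0.00483) and in duct suprabasal cells (log2 difference 0.71, SE 0.21, adjusted p = 0.0211).

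Between sweat gland populations, 3 of 16 partners were lower in myoepithelial than in luminal cells, beside 14.6% of all genes, and 0 were higher, beside 16.5%. The lower ones were Ubqln1 at -0.88 (SE 0.23), Pomp at -0.71 (SE 0.21) and Nfe2l1 at -0.71 (SE 0.21). Nfe2l1 was lower in duct basal than in duct suprabasal cells (log2 difference -0.82, SE 0.21, adjusted p = 0.0302), the only partner of 16 called there, beside 16.4% of all genes. Txnl1, a thioredoxin-like protein bound to the 19S cap, was lower in myoepithelial than in duct basal cells (log2 difference -0.61, SE 0.17, adjusted p = 0.0266). It was the only partner of 16 called there, beside 24.3% of all genes. Between luminal and duct suprabasal cells 0 of 16 were called, beside 15.2% of all genes. By limma 2 partners had an unadjusted p under the threshold, a count for which the share of all genes was not worked out. A further list of 6 ubiquitin and ubiquitin-activating genes is not analysed here, because none of them had a probe set assigned to it alone.

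The peptides made by the immunoproteasome are carried by MHC class I, and 11 of 13 genes of that pathway were tested. Tap1 had 116 and 212 on the duct basal arrays, 149.6 and 146 on the duct suprabasal arrays, 151 and 157 on the myoepithelial arrays, 114 and 110.4 on the luminal arrays and 197 and 145 on the epidermis arrays, and Tap2, its partner in the peptide transporter, had 56.1 and 112 on the duct basal arrays, 108 and 272 on the duct suprabasal arrays, 136 and 138 on the myoepithelial arrays, 254 and 268 on the luminal arrays and 109 and 92 on the epidermis arrays. The 2 duct basal arrays of Tap1 spanned nearly its whole range. Tap2 was bright on the luminal arrays and on duct suprabasal array 2 (log2 difference 1.28, SE 0.43, adjusted p = 0.035 for luminal minus epidermis). Tapbp, which joins the transporter to class I molecules, was higher than epidermis in duct suprabasal (1.22, SE 0.18), myoepithelial (0.59, SE 0.18) and luminal cells (1.64, SE 0.18). B2m, the light chain of class I, was higher than epidermis in duct suprabasal (2.00, SE 0.34) and myoepithelial cells (1.79, SE 0.34). Its signals were 4907 and 11250.5 on the duct suprabasal arrays, 5348 and 7637.5 on the myoepithelial arrays and 1969 and 1725 on the epidermis arrays. H2-K1, a class I heavy chain whose probe set may also read its close relatives, was lower in myoepithelial than in luminal cells (log2 difference -1.34, SE 0.22, adjusted p = 0.00233), whereas B2m was higher (log2 difference 1.17, SE 0.34, adjusted p = 0.0279). The interferon-induced factor Irf1 was the only gene of the list called for duct basal cells against epidermis (log2 difference 2.08, SE 0.32, adjusted p = 0.00148), and it was higher than epidermis in duct suprabasal (2.19, SE 0.32), myoepithelial (2.68, SE 0.32) and luminal cells (1.83, SE 0.32) too. Calr, a chaperone of class I folding, was lower than epidermis in those 3 populations, at -0.95, -0.90 and -1.13, and the chaperone Canx in luminal cells (log2 difference -0.58, SE 0.21, adjusted p = 0.0461). In duct basal, duct suprabasal, myoepithelial and luminal cells, 1, 4, 3 and 4 of 11 were higher than epidermis, beside 23.0%, 29.4%, 31.7% and 26.1% of all genes. The lower counts were 0, 1, 1 and 2 of 11, beside 11.0%, 16.7%, 19.9% and 19.2%. Between the duct layers, Tapbp (-1.24), B2m (-1.41) and H2-K1 (-1.07) were lower in duct basal cells, 3 of 11 beside 8.39% of all genes, and 0 were higher, beside 7.98%. Between luminal and duct suprabasal cells B2m alone was called (log2 difference -1.39, SE 0.34, adjusted p = 0.0265), and for myoepithelial against duct basal cells B2m and Tapbp were higher, at 1.20 (SE 0.34) and 0.61 (SE 0.18). The calls of this list were not repeated with an array left out. The part of endothelial, fibroblast or immune cells in the signals of these genes was not tested.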

How the data were processed

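Biotin-labelled RNA was read on 10 Affymetrix arrays. The deposited values are linear signal intensity from MAS5, per the submitters' processing notes (version not given), with a trimmed mean of 500 on each array. Detection calls were not used here. The arrays hold 22690 probe sets, of which 64 are controls and were not used, 20380 had 1 gene symbol in GEO's platform annotation and 691 had several. Each gene was represented by its brightest probe set. Genes above an array's 40th percentile on at least 2 arrays were tested, 9310 of 12393. Log2(signal + 12) was fitted with limma 3.58.1 (R 4.3.3) in 1 model of 10 arrays with trended variance. P-values were adjusted over all genes. The script was tested on simulated data, with 50 genes lowered in duct basal cells at each fold. At 1.5-, 2-, 4- and 8-fold, 2%, 26%, 64% and 80% of them were called against epidermis. A gene that was not called may therefore still differ. In each role group the called genes with the largest differences were named, up to 4 a direction, with the catalytic, immunoproteasome, Psme1, Tap1, Tap2 and Pomp genes named always. Other genes named for contrast (Psma1, Psma5, Psmb2, Psmb3, Psmc3, Psmc4, Psmd6, Psmd11, Psmd12 and Psme4) were singled out after their values were seen. The members and lists were chosen with earlier results of these data known. The 3 further comparisons with epidermis, the contrast of layers, the brightest 25% and the motifs were added after the values were seen. One of the motifs searched is not reported here. Only 2 arrays a population limit the precision.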

Additional observations from a re-analysis of the deposited data

Results flagged for a closer look

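For 2 members the difference between basal and inner layers was not the same in gland and duct, in a contrast of contrasts in limma (myoepithelial minus luminal, less duct basal minus duct suprabasal) chosen after the values were seen. Psme3, which encodes PA28 gamma, fell by 0.93 on the log2 scale from luminal to myoepithelial cells and stood at 0.29 in the duct, a difference of -1.22 (SE 0.32, adjusted p = 0.0314). Psmg3, a chaperone of the alpha ring, stood at -0.55 in the gland and 0.54 in the duct, a difference of -1.09 (SE 0.27, adjusted p = 0.0264). Of 47 members 2 were called (4.26%), beside 16% of all genes. Without duct suprabasal array 2 the differences were -1.30 for Psme3 and -1.04 for Psmg3. No other array was left out of this contrast. Neither layer difference of Psmg3 was called by itself.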

How the results depend on the processing

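The direction of the median member difference from epidermis held under every scaling tried. Called members ranged over the settings that keep all arrays from 17 to 25 for duct basal cells, 29 to 38 for duct suprabasal, 30 to 41 for myoepithelial and 24 to 34 for luminal cells, and from 29 to 39 in the F test. With only the 4 arrays compared, 36 members were called for luminal cells. Other counts moved more: duct basal against suprabasal from 3 to 5 with a replicate block, 1 without the variance trend and 0 with only the 4 arrays compared; luminal against suprabasal from 1 to 6, 0 and 0; myoepithelial against duct basal from 3 to 6, 1 and 1, and to 5 with quantile normalization and 1 without the filter; and myoepithelial against luminal from 7 to 4 with the mean of all probe sets. The mean of all probe sets reversed Psma1 between the duct layers (-0.065), Psma6 against epidermis in duct basal (0.010) and suprabasal cells (0.0036) and Psmd7 likewise (0.011 and 0.037), since their dim probe sets enter it.

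With 1 array left out, counts ran from 23 to 40 (F test), 10 to 26 (duct basal against epidermis), 24 to 37 (duct suprabasal), 25 to 40 (myoepithelial), 21 to 32 (luminal), 0 to 11 (myoepithelial against luminal), 1 to 8 (duct layers), 0 to 6 (myoepithelial against duct basal) and 0 to 3 (inner layers); 24 of 37, 22 of 38 and 19 of 30 calls against epidermis held throughout in duct suprabasal, myoepithelial and luminal cells, and the lone array was assumed to vary like the other groups. Of 2676 values of 141 called results, 2339 kept direction and call, 332 lost the call and 5 reversed. Only 2 replicate numbers exist, and the labels do not say what they mark. The correlations of array 1 minus array 2 between populations were 0.12 to 0.357 among the 6 pairs of sweat populations and 0.0253 to 0.0878 for the 4 pairs with epidermis, so whether the numbers pair arrays is not settled, and the block is an alternative.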
